A study of Mus musculus with 8 samples.

Results

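Macrophages are among the first blood cells to settle in the tissues of the mouse embryo. Transcripts of 34 macrophage and other myeloid genes were followed here in the trachea of mouse embryos on 2 embryonic days, E11.5 and E13.5. The 34 genes were taken by symbol from the deposited gene tables, which hold 37282 symbols, and all 34 were present in both tables. RNA of dissected whole trachea had been sequenced from 8 libraries in 4 groups of 2: controls at E11.5, WlsShhCre embryos at E11.5, controls at E13.5 and WlsShhCre embryos at E13.5. Wls encodes the membrane protein that carries Wnt ligands out of the cell, and Shh is a gene of the tracheal epithelium, where a Cre recombinase under its control is active. WlsShhCre embryos are called mutants below. The labels give neither the alleles nor the strain, do not state the genotype of the controls beyond the word control, and leave it unstated how the 2 replicates in a group relate to embryos or litters, so all p-values measure the spread between these libraries.

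Tissue macrophages of the embryo come first from the yolk sac and later from the fetal liver. They depend on the receptor encoded by Csf1r, which binds the growth factors CSF1 and IL34, and on the transcription factor PU.1, encoded by Spi1. They recognise dying cells and microbes with scavenger, Fc and pattern receptors, pass the signal on through the adaptors TYROBP and FCER1G, and digest what they take up with lysosomal enzymes and an oxidase that makes superoxide. In developing organs they clear dead cells and release complement C1q, whose A, B and C chains form a single molecule.

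The 8 libraries held between 9.9 and 18.48 M counts, and levels are given as CPM (counts per 1 M library counts after scaling) unless stated. Both E13.5 mutants were the deepest, at 18.48 and 16.76 M, against 9.9 to 11.9 M in the others. Each stage was deposited in its own table. Depth therefore cannot be told apart from the E13.5 mutant group, nor table from stage. Wls itself had 155 and 164 CPM in controls of E11.5, against 118 and 109 in mutants, and 168 and 158 CPM in controls of E13.5, against 73.9 and 71.7 in mutants, so both mutant groups were below their controls. Markers of the labelled tissue were present throughout, with a summed level of 507 to 1500 CPM for 15 airway epithelial genes and 5630 to 16100 CPM for 15 mesenchymal genes. The epithelial sum was not even across the groups: it was 557 ± 70.5 CPM in E11.5 controls, 615 ± 59.1 in E11.5 mutants, 988 ± 32.7 in E13.5 controls and 1480 ± 26 in E13.5 mutants (mean ± SD, n = 2). Of the 15 epithelial genes, 13 rose with stage in controls and 15 in mutants, and 11 were higher in E13.5 mutants than in E13.5 controls. Over all genes tested, 21.4%, 23.9% and 5.97% were called higher in these comparisons, in the same order. The part of the epithelial share in the myeloid differences was not tested. Of 11 mast cell genes, 7 stayed below 0.5 CPM in every library, with Tpsb2 and Fcer1a at no count, as did 9 of 16 lymphoid genes, with Cd3e of T cells at no more than 0.0937 CPM. The lists also hold genes that were present: Kit and Gata2, which other cells use too, lay at 22.6 to 45.1 and 4.27 to 10.8 CPM, the kinase gene Lck at 6.98 to 9.17, and Il7r, a cytokine receptor gene, at up to 3.28. Il7r rose with stage in controls (4.81 ± 0.83) and in mutants (5.11 ± 0.96), Kit rose in both (0.52 ± 0.13 and 0.63 ± 0.13), and Gata2 was lower in E13.5 mutants (-1.16 ± 0.19). The granulocyte list summed to 34.6 CPM in E13.5 control replicate 2 and to 2.26 to 9.98 in the other 7 libraries. Summed over 14 erythroid genes, red cell transcripts lay at 3560 to 9750 CPM at E11.5 and at 1200 to 2550 at E13.5. Of the 14, 11 fell between the stages in each genotype, where 21% of all genes were called lower in controls and 24.5% in mutants. In whole tissue, fewer cells of a type and less RNA per cell cannot be told apart, and this holds for every level below.

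**Figure D1:**
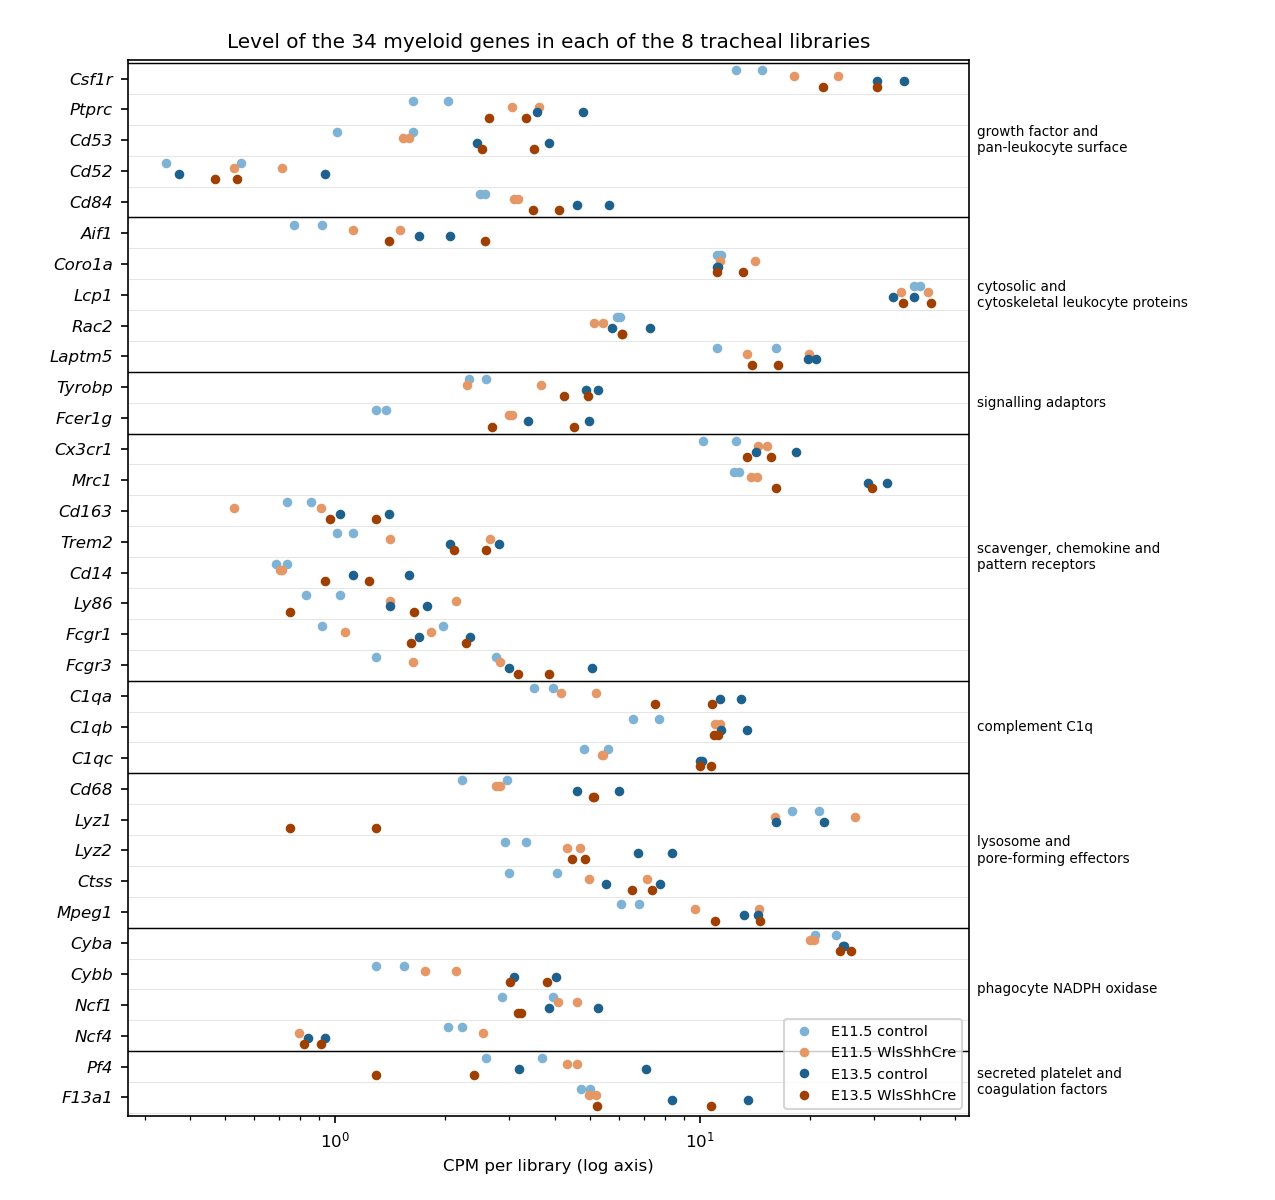
Level of each of the 34 myeloid genes in each of the 8 libraries, in CPM on a logarithmic axis, grouped by role; each point is 1 library and colours mark the 4 groups. In controls, both E13.5 points lie right of both E11.5 points in 25 of the 33 tested genes (36.9% of all genes). In mutants this is so in 14 of the 33 (37.7% of all genes). The 2 E13.5 mutant points of Lyz1 (0.752 and 1.29 CPM) stand far left of its other 6.

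Per kilobase of gene model, in RPKM, the levels of the 34 genes spanned a wide range. Cyba, the small subunit of the phagocyte oxidase and a gene also used outside leukocytes, was the most abundant, at 28.6 ± 2.91 RPKM in E11.5 controls and 32.7 ± 0.351 in E13.5 controls (mean ± SD, n = 2). Cd163, a haemoglobin scavenger receptor of mature macrophages, was the lowest, at 0.176 ± 0.0129 and 0.266 ± 0.0619 RPKM in the same groups. The 3 C1q chains reached 11.3 ± 1.08 (C1qa), 11.8 ± 1.32 (C1qb) and 9.62 ± 0.0891 RPKM (C1qc) in E13.5 controls, close to the macrophage receptor Csf1r at 8.64 ± 1.09 and the adaptor Tyrobp at 8.96 ± 0.498. Among these 5 genes the means of C1qa and C1qb, and those of Csf1r and Tyrobp, differed by less than 1 SD.

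Summed over the 34 genes, the level was 212 and 215 CPM in E11.5 controls, 277 and 230 in E11.5 mutants, 346 and 309 in E13.5 controls, and 243 and 299 in E13.5 mutants. Both E11.5 mutants were above both E11.5 controls, and both E13.5 mutants were below both E13.5 controls. The stage difference was therefore seen in controls without overlap, while the mutant libraries of the 2 stages overlapped. The separation of the genotypes at E13.5 depended on Lyz1. With that gene alone left out, the E13.5 sums were 330 and 287 CPM in controls and 243 and 298 in mutants, which overlapped. Without Lyz1 and the 4 broadly expressed genes Lcp1, Cyba, Coro1a and Rac2, the sums were 110 and 121, 168 and 142, 248 and 212, and 163 and 212 CPM in the same order of groups. The group means kept their order, and E13.5 mutant replicate 2 then equalled E13.5 control replicate 2.

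In controls, the comparison of E13.5 with E11.5 follows the myeloid genes through the days in which tracheal cartilage and muscle take shape. Of the 33 genes with enough counts to be tested, 18 were higher at E13.5, none was lower, and 15 did not pass (edgeR quasi-likelihood test, Benjamini-Hochberg adjusted p under 0.05 over all 14901 genes, the threshold for a call throughout). That is 54.5% of the 33, where 21.4% of all genes tested were called higher in this comparison 21% lower and 42.4% in either direction. The median log2 fold change of the 33 was 0.95, against 0.00 over all genes. In 25 of the 33 both E13.5 controls lay above both E11.5 controls, which was so for 36.9% of all genes, and in 1 both lay below, against 36.3%. The remaining gene, Cd52, encoding a small surface glycoprotein of leukocytes, stayed between 0.343 and 0.937 CPM and was too low to test.

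Among receptors and surface proteins of leukocytes, all 4 tested genes rose in controls. Csf1r lay at 14.8 and 12.5 CPM in E11.5 controls, 23.8 and 18.1 in E11.5 mutants, 36.1 and 30.4 in E13.5 controls and 21.7 and 30.5 in E13.5 mutants. The 4 control libraries separated by stage, and the mutants of E11.5 lay between them. Its rise in controls was 1.28 ± 0.21 (log2 fold change ± SE, adjusted p = 0.00155, edgeR). Ptprc, which encodes the pan-leukocyte phosphatase CD45, lay at 2.03 and 1.63, 3.05 and 3.62, 3.56 and 4.78, and 3.33 and 2.63 CPM in the same order of groups. Its control libraries also separated by stage, with a rise of 1.19 ± 0.30 (adjusted p = 0.00567, edgeR), and its mutant libraries overlapped between stages. Cd53, a tetraspanin of leukocytes, and Cd84, a receptor through which leukocytes bind each other, rose by 1.23 ± 0.37 and 1.01 ± 0.25.

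Both signalling adaptors rose in controls. Tyrobp, which couples TREM2 and other receptors to kinases, lay at 2.58 and 2.32 CPM in E11.5 controls, 3.66 and 2.29 in E11.5 mutants, 5.24 and 4.87 in E13.5 controls and 4.24 and 4.92 in E13.5 mutants. In both genotypes its E13.5 libraries were above its E11.5 libraries. The rise in controls was 1.05 ± 0.27 (adjusted p = 0.0074, edgeR). Fcer1g, the chain through which Fc receptors signal, went from 1.38 and 1.29 to 4.96 and 3.37 CPM in controls, a rise of 1.64 ± 0.35 (adjusted p = 0.00225, edgeR). In mutants it lay at 3.05 and 3 CPM at E11.5, above both E11.5 controls, and at 2.69 and 4.51 CPM at E13.5.

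Of the 8 scavenger, chemokine and pattern receptors, Mrc1, Trem2 and Cx3cr1 rose in controls. Mrc1, the mannose receptor of resident macrophages, lay at 12.8 and 12.4 CPM in E11.5 controls, 14.3 and 13.8 in E11.5 mutants, 32.5 and 28.8 in E13.5 controls, and 16.1 and 29.6 in E13.5 mutants. The first 3 groups were tight, and the E13.5 mutants differed from each other more than any other pair of this gene. Its rise in controls was 1.28 ± 0.29 (adjusted p = 0.0142, edgeR). Trem2, a lipid-binding receptor of phagocytes, rose by 1.18 ± 0.39, and Cx3cr1, the fractalkine receptor, by 0.52 ± 0.16. The 5 receptors that did not pass were Cd163, Cd14 (a co-receptor for bacterial lipopolysaccharide), Ly86 (a partner of a Toll-like receptor relative on B cells and macrophages), and the IgG receptors Fcgr1 and Fcgr3, with log2 fold changes between 0.46 and 0.98 and mean levels of at most 4.03 CPM.

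All 3 complement C1q chains rose in controls. C1qa lay at 3.50 and 3.95 CPM in E11.5 controls, 5.19 and 4.14 in E11.5 mutants, 12.9 and 11.3 in E13.5 controls and 7.52 and 10.8 in E13.5 mutants. Stage separated its libraries in both genotypes, and both E13.5 mutants were below both E13.5 controls. The rise in controls was 1.70 ± 0.22 (adjusted p = 6.32e-05, edgeR), the smallest adjusted p of the 33 genes in this comparison. C1qb lay at 6.54 and 7.72, 11 and 11.3, 13.4 and 11.4, and 11.2 and 10.9 CPM in the same order of groups, so that its E11.5 mutants were already near the E13.5 levels. C1qb rose by 0.80 ± 0.16 in controls (adjusted p = 0.0014, edgeR), and C1qc by 0.95 ± 0.17 (adjusted p = 0.000684, edgeR), from 5.18 ± 0.556 to 10.1 ± 0.0583 CPM (mean ± SD, n = 2). C1qc was alike in both genotypes at each stage, with 5.40 and 5.38 CPM in E11.5 mutants and 9.99 and 10.7 in E13.5 mutants.

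The genes of C1qb and C1qc neighbour each other on chromosome 4, and their promoters are shown because these chains moved together in controls. PU.1 and its relatives bind DNA around a GGAA core, and capitals below mark each match, on either strand, to GAGGAA or GGAAGT, 2 overlapping forms of that core. The windows run from 250 bases before to 50 after the transcription start, from RefSeq on GRCm38.p6, and are written 5′ to 3′ on the gene's own strand. C1qb lies on the minus strand at chr4:136886151-136886450 and C1qc on the minus strand at chr4:136892865-136893164.
C1qb: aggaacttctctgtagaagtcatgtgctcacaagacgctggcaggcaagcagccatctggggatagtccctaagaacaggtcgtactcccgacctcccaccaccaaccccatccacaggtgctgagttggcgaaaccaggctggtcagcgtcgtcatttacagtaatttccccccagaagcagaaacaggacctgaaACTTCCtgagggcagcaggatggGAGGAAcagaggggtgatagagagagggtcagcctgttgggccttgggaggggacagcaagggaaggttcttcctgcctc
C1qc: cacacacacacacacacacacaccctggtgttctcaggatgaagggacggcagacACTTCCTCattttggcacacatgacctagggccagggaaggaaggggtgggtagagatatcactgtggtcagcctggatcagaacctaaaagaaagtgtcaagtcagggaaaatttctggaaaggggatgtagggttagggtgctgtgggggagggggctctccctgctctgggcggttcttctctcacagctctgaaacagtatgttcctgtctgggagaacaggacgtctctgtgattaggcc
Windows were available for 27 of the 34 genes, 32 windows in all. GAGGAA was in 18 of the 32 (56.2%) and in 28.28% of 32851 windows of all genes, GGAAGT in 15 (46.9%) against 23.77%, and the joined GAGGAAGT in 5 (15.6%) against 3.2%. These letters describe the windows and do not show that a factor was bound there.

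Of the lysosomal and pore-forming effectors, Cd68, Lyz2, Ctss and Mpeg1 rose in controls and Lyz1 did not. Mpeg1, a pore-forming protein of phagocytes, lay at 6.08 and 6.78 CPM in E11.5 controls, 14.5 and 9.70 in E11.5 mutants, 13.2 and 14.4 in E13.5 controls, and 11 and 14.6 in E13.5 mutants. Only the E11.5 controls stood apart, and the other 3 groups overlapped. Its rise in controls was 1.10 ± 0.21 (adjusted p = 0.00121, edgeR). Cd68, a lysosomal membrane glycoprotein, rose by 1.03 ± 0.25, and Ctss, a lysosomal protease, by 0.92 ± 0.26.

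Of the 4 subunits of the phagocyte oxidase, Cybb alone rose in controls, by 1.32 ± 0.31 (adjusted p = 0.0043, edgeR). It encodes the catalytic subunit and lay at 1.29 and 1.54 CPM in E11.5 controls and 3.09 and 4.03 in E13.5 controls. Cyba, Ncf1 and Ncf4 had log2 fold changes of 0.16, 0.41 and -1.25. Ncf4, a cytosolic subunit, lay at 2.03 and 2.23 CPM at E11.5 and 0.843 and 0.937 at E13.5, the 1 gene of the 33 whose control libraries were without overlap lower at E13.5 (adjusted p = 0.0549, edgeR). F13a1, the A chain of coagulation factor XIII and a transcript of resident macrophages and megakaryocytes, rose by 1.17 ± 0.37, from 4.85 ± 0.181 to 10.9 ± 3.63 CPM (mean ± SD, n = 2).

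None of the 5 cytosolic and cytoskeletal leukocyte proteins passed the test in controls. Lcp1 (an actin bundler), Coro1a (an actin regulator) and Rac2 (a small GTPase) had log2 fold changes of -0.12, -0.01 and 0.13. Lcp1 lay between 33.7 and 42.8 CPM in all 8 libraries and Coro1a between 11.1 and 14.1. Aif1 (a calcium-binding protein of macrophages) and Laptm5 (a lysosomal membrane protein of leukocytes) were higher in both E13.5 controls than in both E11.5 controls, with log2 fold changes of 1.14 ± 0.44 and 0.57 ± 0.21 (adjusted p = 0.0523 and 0.0567, edgeR).

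In E13.5 controls 26 of the 34 genes were higher in replicate 1 than in replicate 2, which was so for 48.5% of all genes tested. Some of the 18 calls were lost with each control library left out, and the calls over all genes also fell each time. C1qa, C1qb, C1qc, Csf1r, Cybb, Fcer1g, Lyz2 and Mpeg1 were called in all 14 alternatives.

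**Figure D2:**
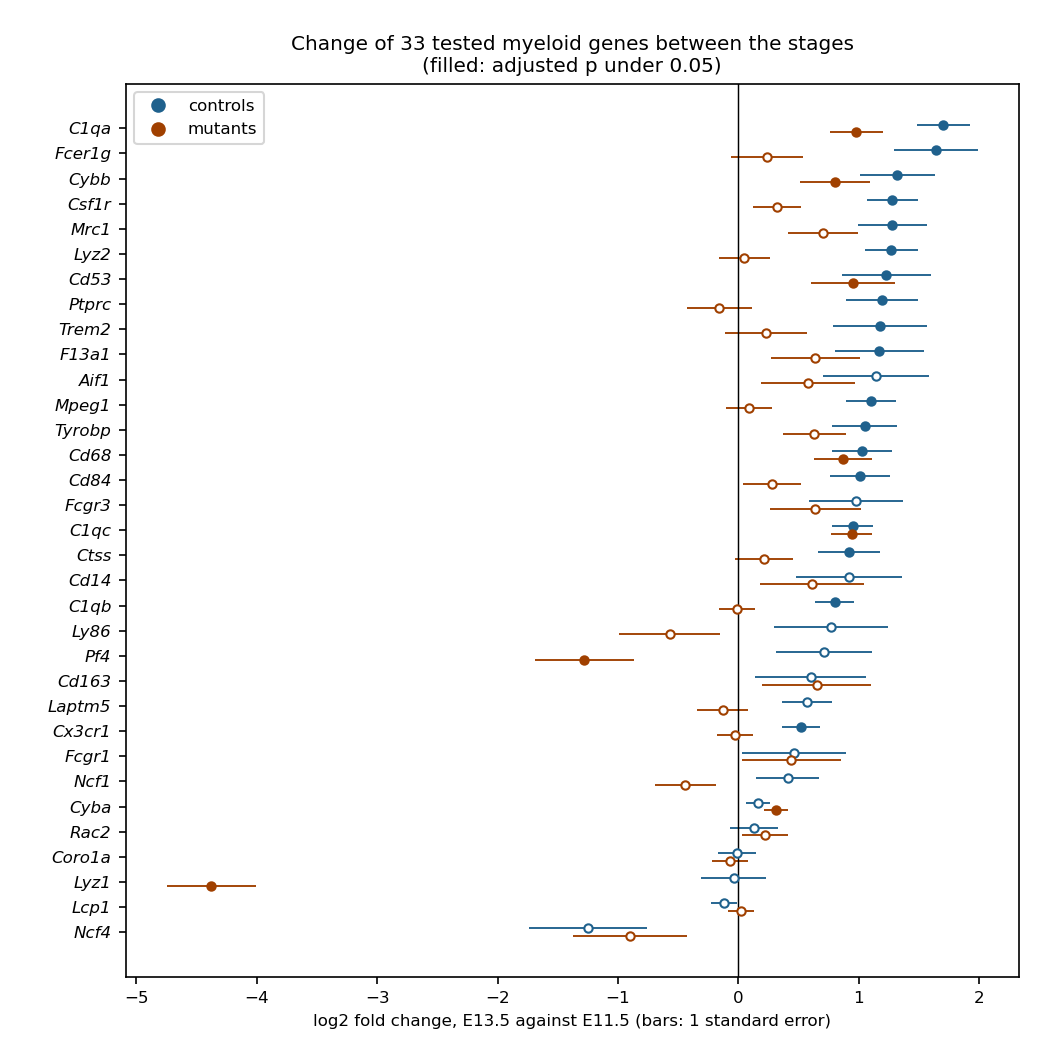
Log2 fold change of E13.5 against E11.5 for the 33 tested myeloid genes in controls and in mutants (bars: 1 standard error; filled points: adjusted p under 0.05, edgeR). In controls 18 genes are called and all lie right of 0, with a median of 0.95; in mutants 8 are called, 6 right and 2 left of 0, with a median of 0.24.

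In mutants, 6 of the 33 genes were higher at E13.5 than at E11.5, 2 were lower and 25 did not pass. Over all genes tested, 23.9% were called higher in this comparison and 24.5% lower, 48.5% in all. The genes that rose were C1qa (0.98 ± 0.22), Cd53 (0.95 ± 0.35), C1qc (0.94 ± 0.17), Cd68 (0.87 ± 0.24), Cybb (0.80 ± 0.29) and Cyba (0.31 ± 0.10). The first 5 were also called in controls, and Cyba was not. The median log2 fold change was 0.24, against 0.01 over all genes. In 14 of the 33 both E13.5 mutants lay above both E11.5 mutants, which was so for 37.7% of all genes, and in 3 both lay below, against 37.2%. Of the genes that rose in controls, Csf1r changed by 0.32 ± 0.20 in mutants, Mrc1 by 0.70 ± 0.29, Tyrobp by 0.63 ± 0.26, Lyz2 by 0.05 ± 0.21 and Ptprc by -0.16 ± 0.27, none past the test. Lyz1 and Pf4 fell and are described below. The calls of C1qa, C1qc and Lyz1 held in all 14 alternatives.

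At E11.5, none of the 33 genes passed the test between mutants and controls, in a comparison where 0.362% of all genes tested were called, 0.0738% as higher and 0.289% as lower. Neither DESeq2 nor limma-voom called any of them. At an unadjusted p under 0.05 there were 9 of the 33, against 7.54% of all genes. The median log2 fold change of the 33 was 0.28, with 26 above 0, where 50.2% of all genes lay above 0. In 17 of the 33 both mutants lay above both controls, which was so for 18.1% of all genes, and in 2 both lay below, against 17.9%. The values of the main macrophage genes were 0.61 ± 0.22 for Csf1r, 0.87 ± 0.30 for Ptprc, 0.27 ± 0.29 for Tyrobp, 0.32 ± 0.25 for C1qa, 0.53 ± 0.24 for Lyz2, 0.15 ± 0.31 for Mrc1 and 0.50 ± 0.40 for Pf4 (log2 fold change ± SE), with adjusted p between 0.405 and 0.983 (edgeR). Mpeg1 had the smallest adjusted p, 0.144, at 0.90 ± 0.21, and it passed when E11.5 mutant replicate 2 was left out. In E11.5 mutants 27 of the 34 genes were higher in replicate 1 than in replicate 2, which was so for 51.4% of all genes tested.

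**Figure D3:**
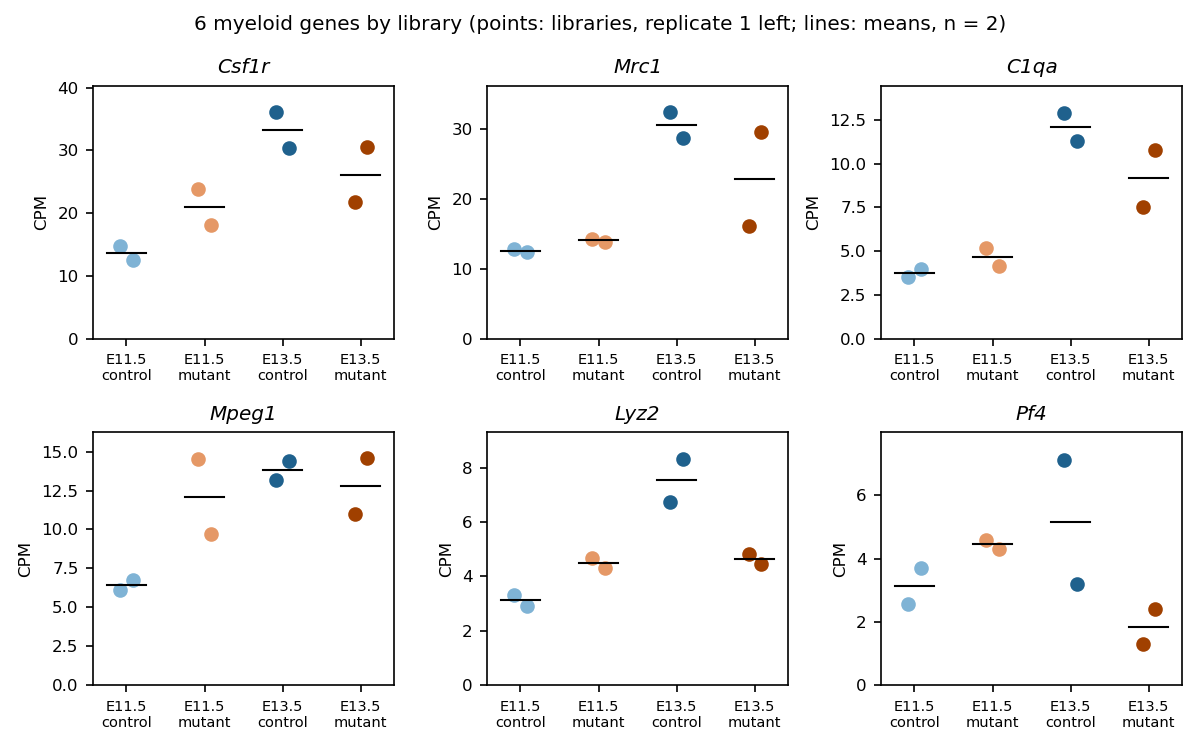
CPM of Csf1r, Mrc1, C1qa, Mpeg1, Lyz2 and Pf4 in each library (points, replicate 1 to the left; horizontal lines are group means, n = 2). Csf1r, C1qa and Lyz2 are higher in both E13.5 controls than in both E11.5 controls, and the E13.5 mutant points of Mrc1 (16.1 and 29.6 CPM) lie far apart.

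At E13.5, 3 of the 33 genes were lower in mutants than in controls, none was higher and 30 did not pass. That is 9.09% of the 33, in a comparison where 11.8% of all genes tested were called, 5.97% higher and 5.81% lower. The 3 genes were Lyz1, Lyz2 and Pf4. The median log2 fold change of the 33 was -0.17, against 0.00 over all genes. Of the 33, 27 lay below 0 and 6 above, where 49.1% of all genes lay above 0. In 9 of the 33 both mutants lay below both controls, which was so for 27.2% of all genes, and in none both lay above, which was so for 27.3%. Csf1r (-0.35 ± 0.19), Ptprc (-0.48 ± 0.26), Tyrobp (-0.14 ± 0.24), C1qa (-0.41 ± 0.19) and Mrc1 (-0.43 ± 0.27) did not pass, with adjusted p between 0.228 and 0.776 (edgeR). The C1q chains C1qb and C1qc were at -0.17 and 0.04.

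The 2 E13.5 mutant libraries were not alike in these genes. In 23 of the 34, replicate 1 was lower than replicate 2, with a median ratio of 0.848. Over all genes tested, 47.4% were lower in replicate 1. Mrc1 lay at 16.1 against 29.6 CPM, F13a1 at 5.21 against 10.7 and Csf1r at 21.7 against 30.5. Replicate 1 also had little Xist, the transcript of the inactive X chromosome, at 6.34 CPM, against 526 to 2670 in the other 7 libraries, which all held Xist and the Y-linked Ddx3y together. The part of sex in the difference between these libraries was not tested. Without replicate 2, 5 of the 33 genes were lower in mutants, namely Csf1r, F13a1, Lyz1, Mrc1 and Pf4, and without replicate 1 Lyz1 alone was.

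Lyz1 showed the largest difference of the 33 between E13.5 mutants and controls. This gene encodes a lysozyme that digests bacterial cell walls, made in the mouse by Paneth cells of the small intestine, while its neighbour Lyz2 encodes the lysozyme of macrophages and neutrophils. Lyz1 lay at 21.2 and 17.8 CPM in E11.5 controls, 26.6 and 16.0 in E11.5 mutants, 16.1 and 21.8 in E13.5 controls, and 0.752 and 1.29 in E13.5 mutants. Both E13.5 mutants were far below the other 6 libraries, which overlapped. The genotype effect at E13.5 was -4.22 ± 0.37 (adjusted p = 0.00032, edgeR), the change between stages in mutants was -4.38 ± 0.37 (adjusted p = 4.6e-05, edgeR), and the call at E13.5 held in all 15 alternatives.

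Genes of the intestinal epithelium moved with Lyz1. A list of 18 such genes, written after their values were seen and not holding Lyz1, summed to 15.8 and 16.9 CPM in the E13.5 mutants and to 104 to 168 in the other 6 libraries. Of the 18 genes, 17 were lower in both E13.5 mutants than in all 6 others, and 6 had no count in either E13.5 mutant. Reg3b, an antibacterial lectin of the gut, lay at 16.0 to 33.5 CPM in the 6 libraries and at 0 in both E13.5 mutants, and Defa24, a Paneth cell defensin, at 10.4 to 29.6 CPM and at 0. At E13.5, 16 of the 18 were called lower in mutants, where 5.81% of all genes were called lower. The part of intestinal transcripts in the Lyz1 result was not tested.

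Lyz2 lay at 3.32 and 2.92 CPM in E11.5 controls, 4.68 and 4.32 in E11.5 mutants, 6.74 and 8.34 in E13.5 controls and 4.84 and 4.45 in E13.5 mutants. It rose in controls by 1.27 ± 0.22 (adjusted p = 0.000539, edgeR), and the libraries of the 2 mutant groups overlapped. At E13.5 it was lower in mutants (-0.70 ± 0.20, adjusted p = 0.04, edgeR), a call that 8 of 15 alternatives did not keep, with adjusted p from 0.0296 to 0.275. Its highest level was in E13.5 control replicate 2, the library with 34.6 CPM of granulocyte genes. Without that library the difference was -0.54, and with other single libraries left out it ranged down to -0.84. The call was lost under DESeq2, on the 4 libraries of the stage, without that library and without several others. The part of granulocytes in the Lyz2 result was not tested. Reads of the 2 lysozyme genes can be hard to assign: their transcripts in the GENCODE annotation of GRCm38 agree in 1211 of 1262 aligned bases (96.0%), with an identical run of up to 118 bases. No source used here states how the authors' counting treated reads that match both, and the Lyz2 difference is uncertain for that reason.

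The promoters of the lysozyme pair are shown because the genes are near copies that differ in level and in the size of their change. Over 298 aligned bases, 249 (83.6%) were identical. Lyz1 lies on the minus strand at chr10:117292819-117293118 and Lyz2 on the minus strand at chr10:117282223-117282522 (RefSeq, GRCm38.p6), and capitals again mark GAGGAA or GGAAGT on either strand.
Lyz1: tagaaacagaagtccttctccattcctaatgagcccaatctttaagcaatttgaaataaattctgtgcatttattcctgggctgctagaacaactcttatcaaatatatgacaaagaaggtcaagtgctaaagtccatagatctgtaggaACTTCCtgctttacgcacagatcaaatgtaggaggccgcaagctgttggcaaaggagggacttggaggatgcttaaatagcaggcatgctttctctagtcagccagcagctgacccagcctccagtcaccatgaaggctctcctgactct
Lyz2: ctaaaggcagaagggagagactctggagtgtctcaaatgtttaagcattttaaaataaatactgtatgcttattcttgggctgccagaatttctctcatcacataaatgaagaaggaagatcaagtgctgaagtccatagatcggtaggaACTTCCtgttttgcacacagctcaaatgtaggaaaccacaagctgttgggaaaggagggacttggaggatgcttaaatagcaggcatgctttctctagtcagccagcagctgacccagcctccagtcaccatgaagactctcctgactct
Each window holds 1 match to GGAAGT, in its reverse complement, and none to GAGGAA.

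Pf4, platelet factor 4, is a chemokine stored in platelets and is also transcribed by macrophages of the embryo. It lay at 2.58 and 3.69 CPM in E11.5 controls, 4.58 and 4.32 in E11.5 mutants, 7.11 and 3.19 in E13.5 controls and 1.29 and 2.40 in E13.5 mutants. Both E13.5 mutants were below the other 6 libraries, and the E13.5 controls differed from each other. The genotype effect at E13.5 was -1.49 ± 0.40 (adjusted p = 0.0372, edgeR), lost in 9 of 15 alternatives with adjusted p up to 0.368, and the change between stages in mutants was -1.28 ± 0.41 (adjusted p = 0.0251, edgeR). Its promoter, on the plus strand at chr5:90772185-90772484 (RefSeq, GRCm38.p6), is shown because it holds the joined GAGGAAGT, here as its reverse complement in capitals.
Pf4: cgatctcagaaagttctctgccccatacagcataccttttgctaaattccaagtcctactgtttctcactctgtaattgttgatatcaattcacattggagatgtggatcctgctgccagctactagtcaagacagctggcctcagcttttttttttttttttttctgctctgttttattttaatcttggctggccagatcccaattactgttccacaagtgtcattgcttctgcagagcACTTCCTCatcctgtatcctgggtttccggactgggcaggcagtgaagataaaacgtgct

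Some other platelet and megakaryocyte genes were also lower in E13.5 mutants. The 10 others on that list summed to 63.2 and 26.5 CPM in E13.5 controls, 19.2 and 25.5 in E13.5 mutants and 24.0 to 35.7 in the E11.5 libraries, so E13.5 control replicate 1 stood above the other 7. Of these, 8 were tested, and 4 were lower in E13.5 mutants and none was higher, with a median of -2.5, where 5.81% of all genes were called lower. The rest did not pass, and Itgb3, also on the list, overlapped, at 20.1 and 12.1 CPM in E13.5 controls and 12.7 and 17.4 in mutants. Gp5, a platelet surface glycoprotein, lay at 1.87 and 0.937 CPM in E13.5 controls and 0.161 and 0.117 in mutants (-3.24 ± 0.69, adjusted p = 0.00711, edgeR). Gp9, a partner of Gp5 in the receptor for von Willebrand factor, lay at 3.37 and 0.937 against 0.215 and 0.293 (-3.04 ± 0.65), and neither passed without E13.5 control replicate 1, nor Gp9 without E13.5 mutant replicate 1. The part of platelets in the Pf4 result was not tested. Of 17 endothelial genes, 6 were also called lower in E13.5 mutants, where 5.81% of all genes were called lower. The 17 genes summed to 704 and 806 CPM in E13.5 controls and 514 and 566 in E13.5 mutants.

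**Figure D4:**
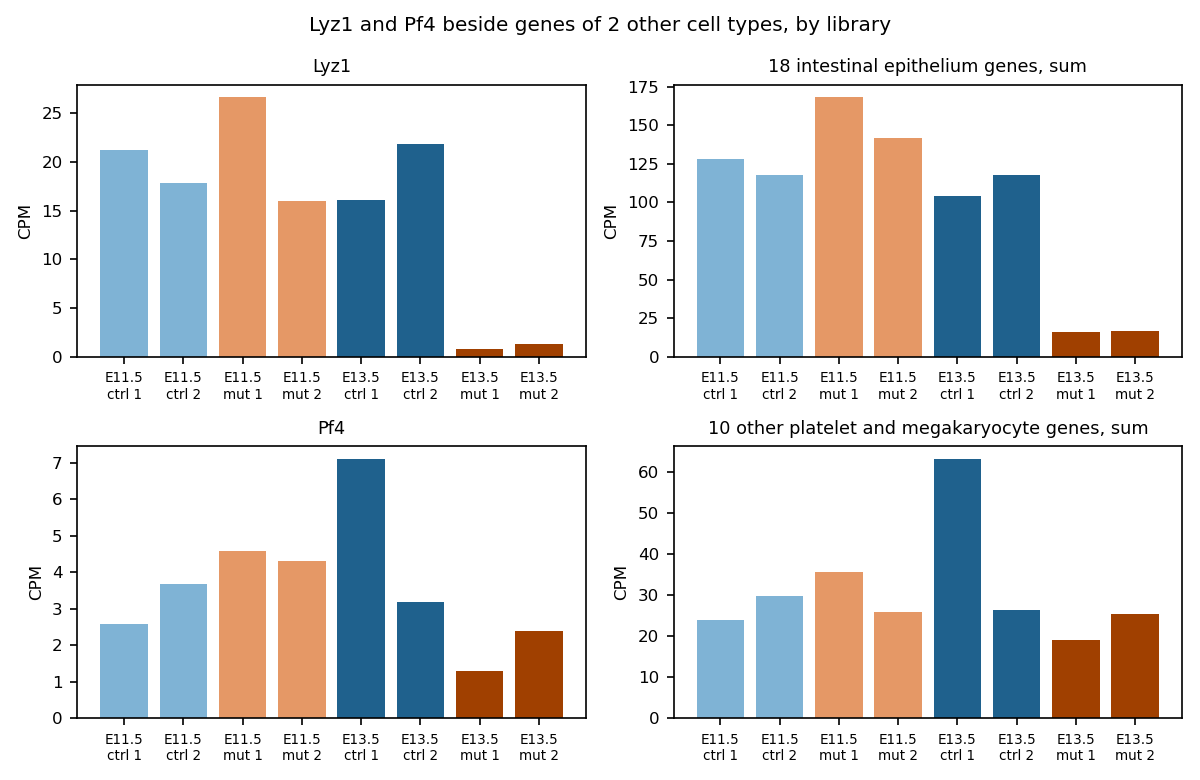
CPM of Lyz1 and Pf4 in each library (left), beside the summed CPM of 18 intestinal epithelium genes and of 10 platelet and megakaryocyte genes other than Pf4 (right); each bar is 1 library. The E13.5 mutants have the lowest bars for Lyz1 (0.752 and 1.29) and for the intestinal genes (15.8 and 16.9), and E13.5 control replicate 1 has the highest bar for the platelet genes (63.2).

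The genotype effects at the 2 stages were then compared directly. Of the 33 genes, 2 passed this interaction test, both lower, in a comparison where 3.34% of all genes were called. Lyz1 differed by -4.34 ± 0.46 (adjusted p = 0.00294, edgeR) and Lyz2 by -1.23 ± 0.31 (adjusted p = 0.0492, edgeR), and Lyz2 was not called in 12 of 14 alternatives. The median over the 33 was -0.56, against 0.00 over all genes. Of the 33, 28 lay below 0 and 5 above, where 50% of all genes lay above 0. At an unadjusted p under 0.05 there were 12 of the 33, against 15.9% of all genes. Ptprc (-1.35 ± 0.40, adjusted p = 0.0962), C1qb (-0.81 ± 0.22, adjusted p = 0.0659), Mpeg1 (-1.01 ± 0.29, adjusted p = 0.0862), Csf1r (-0.96 ± 0.29, adjusted p = 0.142) and Pf4 (-1.99 ± 0.57, adjusted p = 0.104) did not pass (edgeR). C1qa was at -0.72 ± 0.32, Tyrobp at -0.41 ± 0.38 and Mrc1 at -0.58 ± 0.41. That 18 genes rose in controls and 6 in mutants is thus not shown to differ between the genotypes gene by gene. Lyz2 was the exception in the main fit, but this depended on the method. DESeq2 called Lyz1 and Csf1r but not Lyz2, and without the low-count filter Mpeg1 was called as well.

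Other macrophage genes were read beside the 34. Of 40 further genes of this kind, 33 were tested, and in controls 10 rose with stage and none fell, with a median of 0.78, where 21.4% of all genes were called higher and 21% lower. Adgre1, which encodes the macrophage antigen F4/80 and is listed in the files as Emr1, went from 2.49 and 3.35 to 10.7 and 7.68 CPM in controls, a rise of 1.65 ± 0.28 (adjusted p = 0.000571, edgeR). Ms4a7, a membrane protein of mature macrophages, rose by 3.36 ± 0.63 from levels of at most 0.257 CPM. In mutants 3 of the 33 rose and 2 fell, with a median of 0.16, where 23.9% of all genes were called higher and 24.5% lower. No gene of the list passed between genotypes at E11.5, and at E13.5 Plek, a protein of platelets and leukocytes, was lower in mutants (-0.85 ± 0.24, adjusted p = 0.0417, edgeR), a call lost in 11 of 15 alternatives.

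Of 17 transcription factors, growth factors and chemokines that act on myeloid cells, 15 were tested. In controls 8 rose with stage and 1 fell, in mutants 7 rose and 2 fell, and at E13.5 the mutants had 2 higher and 1 lower. Over all genes, the calls higher and lower were 21.4% and 21% in controls, 23.9% and 24.5% in mutants, and 5.97% and 5.81% between genotypes at E13.5. Spi1, listed in the files as Sfpi1, lay at 1.66 and 2.06 CPM in E11.5 controls, 2.34 and 2.47 in E11.5 mutants, 3.37 and 4.03 in E13.5 controls and 1.93 and 2.63 in E13.5 mutants. It rose in controls by 0.99 ± 0.30 (adjusted p = 0.0173, edgeR), and its E13.5 mutants lay below its E13.5 controls without passing (-0.70 ± 0.27, adjusted p = 0.131, edgeR). The ligand Csf1 rose in both genotypes, by 0.70 ± 0.17 in controls and 0.65 ± 0.17 in mutants, with a genotype effect of -0.06 ± 0.16 at E13.5. Il34, the other ligand of the same receptor, did not exceed 0.537 CPM. Cebpb and Runx1, transcription factors of blood and other tissues, were higher in E13.5 mutants (0.97 ± 0.19 and 0.61 ± 0.14), and the chemokine Cxcl12 was lower (-0.50 ± 0.11), with each of these calls lost when at least 1 E13.5 library was left out.

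Of the 6 antigen-presenting genes tested, none passed between the stages in controls and 4 fell in mutants between the stages, where 42.4% of all genes were called in controls and 24.5% were called lower in mutants. Cd74, the invariant chain of class II molecules, lay at 5.06 and 2.91 CPM in E13.5 controls and 1.40 and 0.936 in E13.5 mutants (-1.75 ± 0.33, adjusted p = 0.00346, edgeR), and its call was lost without E13.5 control replicate 1. H2-Aa, a class II chain, lay at 1.12 and 0.469 against 0.107 and 0.234 CPM (-2.18 ± 0.66, adjusted p = 0.0482, edgeR), a call lost in 11 of 14 alternatives. Both genes were lower in both E13.5 mutants than in all other libraries, where Cd74 was at least 2.57 CPM and H2-Aa at least 0.469. Lyz1 and most of the intestinal genes had the same pattern, and the part of intestinal transcripts here was not tested.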

How the data were processed

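Total RNA had been isolated with Trizol and made into Nextera XT libraries, which do not mark the strand, per the labels' protocols. The submitters' processing notes list DESeq, Cufflinks 2.0.2, TopHat2 2.0.8 and Bowtie2 2.1.0, with the build mm9; the counter and annotation are not given in the sources used here. Per the file headers, the authors deposited a raw count and a read density per gene and library. As the authors deposited them, these are estimated counts, since most values above 0 were not whole, and were rounded here. From the values, the deposited density is an RPKM. The 34 genes had the same gene-model length in both stage tables, unlike 1068 of 17940 entries. Entries that name no gene held 0.000985 to 0.0253% of counts and were left out.

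Counts of 14901 genes that passed filterByExpr (minimum count 10) were TMM-scaled and fitted with edgeR 4.0.16 (R 4.3.3; robust quasi-likelihood, 1 mean per group, 8 libraries, 4 residual degrees of freedom). The scripts were tested on simulated data. Replicates differed beyond counting noise in every group. Alternatives were DESeq2 1.42.0, limma 3.58.1 (voom), other scaling and filtering, a replicate block, a fit without robust weights, only the 4 libraries of a stage, and each library left out. All 34 genes are accounted for by role; folds with errors were given for called genes and for Csf1r, Ptprc, Tyrobp, C1qa, Lyz2, Mrc1 and Pf4, and from other lists for at most 4 called genes each, with named exceptions such as Mpeg1, Spi1 and Csf1 chosen after their values were seen. The genes and lists were chosen with earlier results of these data known. Intervals cover the spread between libraries only.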

Additional observations from a re-analysis of the deposited data

Results flagged for a closer look

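The following genes were set apart because their genotype effect differed between E13.5 and E11.5 in the interaction test (edgeR, adjusted p under 0.05). Among the 34 myeloid genes these were Lyz1, with a difference of -4.34 on the log2 scale, and Lyz2, with -1.23. Among genes of the other lists, Cd74 differed by -2.37 (adjusted p = 0.0122), Plek by -1.51 (adjusted p = 0.0339), Cxcl12 by -0.71 (adjusted p = 0.0433), and Runx1 by 1.45 (adjusted p = 0.0026). The platelet glycoprotein genes Gp5 and Gp9 differed by -3.99 (adjusted p = 0.0233) and -4.39 (adjusted p = 0.0427), at levels of at most 3.37 CPM. Of 14 alternatives, Lyz2 was not called in 12, Gp9 in 9, Plek in 8, Gp5 in 7, Cxcl12 in 6 and Cd74 in 3. Lyz1 and Runx1 were called in all.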

How the results depend on the processing

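Under DESeq2, limma-voom, RLE scaling, no low-count filter and the replicate block, the medians of the 33 genes kept their direction in all 5 comparisons. The genes called at E13.5 between genotypes were 3 in the main fit, and 1 with the 4 libraries of the stage alone. DESeq2 called 2 (Lyz1 and Pf4), and limma-voom and the replicate block each called 2 (Lyz1 and Lyz2). The interaction calls were 2, and 1 under limma-voom, under the replicate block and without the robust fit. DESeq2 also called 2, with Csf1r in place of Lyz2, and without the low-count filter Mpeg1 was added. The stage calls in mutants were 8, with 5 under DESeq2, 7 under limma-voom and 9 without the robust fit. With 1 library left out, the calls ranged from 0 to 1 at E11.5, 1 to 5 at E13.5, 1 to 6 for the interaction, 10 to 19 for the stage in controls and 4 to 9 in mutants. The medians then ranged from 0.24 to 0.46, from -0.32 to -0.06, from -0.79 to -0.46, from 0.73 to 1.09 and from 0.09 to 0.32. Values near 0 changed sign: Tyrobp at E11.5 ranged from -0.09 (without E11.5 mutant replicate 1) to 0.58, and Lyz2 between stages in mutants from -0.02 (without E13.5 mutant replicate 1; -0.01 without E11.5 mutant replicate 2) to 0.11. The calls over all genes at E11.5 were 54, against 90 with DESeq2, 29 with limma-voom, 92 without the filter, 120 on 4 libraries and 20 to 100 with 1 library left out. At E13.5 they were 1755, against 934 without control replicate 1, and the interaction's 497 fell to 279 at the lowest. The causes were not tested. Replicate numbers share no source in the labels, and same-numbered libraries did not deviate together (correlations -0.062 to 0.045), so the block, which at E13.5 called Lyz1 and Lyz2, is given here only. With 2 libraries per group, genes under a few CPM, such as Cd52, Cd14 and Ly86, have wide errors.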
